A study of Mus musculus with 6 samples.

Results

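The genes described here are 31 regulators and surface proteins of blood stem cells, taken as a list by name: transcription factors such as Runx1, Gata2 and Gfi1, chromatin proteins such as Bmi1 and Prdm16, and surface molecules such as Kit, Flt3 and Esam. For each gene, the CpG positions that were covered in all 6 libraries and lay inside its RefSeq extent or within 1 kb outside it were collected, each strand counted as its own position. Of the 31 genes, 28 held such shared positions, 1412 in all out of 552338 in the whole data set. The positions were divided into gene ends, within 1000 bases of either end of the extent, and the gene body between them. Regions with at least 5 shared positions were compared, which left 21 ends and 21 bodies from 27 genes.

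The assay was enhanced reduced representation bisulfite sequencing, which reads CpG-rich restriction fragments after bisulfite has turned unmethylated C into a base read as T. KI mice had the genotype IDH1+/lsl VavCre+, a heterozygous Idh1 allele switched on by Cre recombinase, and Control mice were littermates with the genotype IDH1+/+ VavCre+. Both genotypes thus carried Cre under the Vav promoter, which is active in blood cells, and all were male C57BL/6 mice aged 7 to 10 months. Marrow was pooled from 6 mice per group and sorted into long-term stem cells (LT-HSC: Lin- Sca+ Kit+ CD150+ CD48-), short-term stem cells (ST-HSC: CD150+ CD48+) and multipotent progenitors (MPP: CD150-). Each genotype and cell type was 1 library, so every difference is between single pools, and a change in the mix of cells within a gate and a change within each cell cannot be told apart.

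Methylation of CpGs at a start site goes with a silent promoter, and the CpG-rich starts of most genes stay unmethylated whether or not the gene is in use. Methylation in gene bodies, outside CpG-rich stretches, is common and can drop at enhancers that are in use. Blood stem cells rely on a small network of transcription factors, among them Runx1, Gata2, Tal1, Lyl1, Lmo2, Erg and Fli1, and members of this network are switched down as cells move from stem cell to progenitor. IDH1 makes 2-oxoglutarate, which the TET enzymes need to oxidise methylated cytosine.

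The libraries held 38284759 to 53884467 reads as coverage summed over positions, with a median coverage of 36 to 64 reads at shared positions. Over all shared positions the mean level was 21.96, 22.8 and 23.3% in KI LT-HSC, ST-HSC and MPP, against 21.8, 21.5 and 21.8% in Control. Over all positions of each library, weighted by reads, it was 18.8, 30.0 and 30.3% in KI, against 27.5, 29.4 and 27.3% in Control. KI LT-HSC thus stood lowest by reads, and it had the fewest positions (854387, against 931370 to 1069270). Its part in the read-weighted values given below was not tested. By the lane numbers in the deposited names, KI libraries ran in lanes 3, 4 and 7 and Control libraries in lanes 5 and 6, so the effects of lane and of genotype cannot be told apart. LT-HSC and MPP also ran in different lanes, 7 and 4 in KI and 6 and 5 in Control. Effects of lane and of the step from LT-HSC to MPP thus cannot be told apart either. The files hold no expression, so the sort could not be checked against markers in the usual way. Of 14 marker genes of other marrow cells, 4 held at least 5 shared positions. Of these, Klf1 and Pecam1 were higher in KI in all 3 cell types, Elane was lower in all 3, and Cd4 was mixed. Their part in the results was not tested.

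Starts were measured for only part of these genes. A RefSeq table of promoters (GRCm38.p6, the same build as mm10, 250 bases before to 50 after a start) matched 25 of the 31 genes with 34 starts, of which 15 held shared positions. The outer start of Mllt3 held 13 measured positions and is not shown as sequence. It was at 1.17, 2.77 and 2.52% in KI LT-HSC, ST-HSC and MPP, against 2.15, 0.344 and 0% in Control. Also not shown are the starts of Nr4a1 and Myb (8 positions each), at 1.74 to 13.9% and 1.58 to 11.7% over the 6 libraries. Those of Lyl1 (2 positions) and Cd34 (1 position) ran from 1.39 to 29.6% and from 0 to 30.8%. The other measured starts that are not shown stayed under 10% in every library. The 4 stretches below hold 10 to 15 measured positions each and belong to genes whose bodies are described later. They are written 5′ to 3′ on the strand of the gene, with the CpGs read in all 6 libraries in capitals. The first is the outer start of Gata2 (chr6:88193641-88193940, plus strand), the second the inner start of Gata2 (chr6:88198414-88198713, plus strand), the third the inner start of Runx1 (chr16:92697280-92697579, minus strand) and the last the start of Fgd5 (chr6:91978715-91979014, plus strand).
Gata2 outer start: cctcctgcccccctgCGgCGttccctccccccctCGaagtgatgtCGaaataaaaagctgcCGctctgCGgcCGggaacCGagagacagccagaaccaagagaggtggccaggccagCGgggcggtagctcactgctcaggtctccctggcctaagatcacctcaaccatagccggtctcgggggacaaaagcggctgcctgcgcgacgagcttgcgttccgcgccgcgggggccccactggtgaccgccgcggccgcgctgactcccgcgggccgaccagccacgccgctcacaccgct
Gata2 inner start: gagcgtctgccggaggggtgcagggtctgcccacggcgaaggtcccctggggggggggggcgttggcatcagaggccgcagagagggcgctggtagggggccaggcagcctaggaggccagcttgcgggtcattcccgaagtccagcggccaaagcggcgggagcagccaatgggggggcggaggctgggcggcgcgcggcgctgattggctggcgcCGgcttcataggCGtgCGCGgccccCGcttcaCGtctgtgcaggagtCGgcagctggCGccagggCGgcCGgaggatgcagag
Runx1 inner start: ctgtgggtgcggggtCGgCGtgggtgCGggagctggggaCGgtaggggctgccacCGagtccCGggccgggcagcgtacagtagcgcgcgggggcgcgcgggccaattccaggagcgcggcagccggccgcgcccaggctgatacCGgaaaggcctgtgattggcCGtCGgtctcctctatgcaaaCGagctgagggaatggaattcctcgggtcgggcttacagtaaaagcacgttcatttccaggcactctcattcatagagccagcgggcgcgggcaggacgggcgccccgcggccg
Fgd5 start: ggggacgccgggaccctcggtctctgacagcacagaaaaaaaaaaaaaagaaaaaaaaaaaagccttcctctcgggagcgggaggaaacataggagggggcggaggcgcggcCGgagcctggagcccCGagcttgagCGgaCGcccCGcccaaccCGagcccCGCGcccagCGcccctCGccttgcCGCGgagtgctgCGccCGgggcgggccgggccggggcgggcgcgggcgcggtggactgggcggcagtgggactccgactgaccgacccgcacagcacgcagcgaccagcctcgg

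The outer Gata2 start was at 0.313, 1.86 and 1.79% in KI LT-HSC, ST-HSC and MPP, against 1.67, 1.58 and 0.794% in Control, over 10 positions. The inner Gata2 start was at 1.25, 2.48 and 2.79% in KI, against 1.76, 2.31 and 3.61% in Control, over 13 positions. The start of Fgd5, an exchange factor for Cdc42 whose expression marks stem cells, was at 0.821, 1.89 and 2.58% in KI, against 0.678, 0.983 and 4.68% in Control, over 15 positions. These 3 stretches were almost free of methylation in every library. The inner start of Runx1 stood higher, at 6.67, 7.53 and 11.2% in KI, against 3.08, 5.23 and 1.93% in Control, over 10 positions, and every KI library lay above every Control library there.

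Gene ends were nearly unmethylated in all 6 libraries. The median over the 21 ends was 2.52, 3.61 and 3.78% in KI LT-HSC, ST-HSC and MPP, against 3.40, 2.58 and 2.51% in Control. Over all 13157 gene ends the medians were 3.09, 3.84 and 4.36% in KI, against 3.41, 3.31 and 3.13% in Control. The single values ran from 0% (the ends of Hlf and Mllt3 in Control MPP, and of Hlf in Control LT-HSC) to 10.8% (the ends of Flt3 in Control LT-HSC). Bodies covered the whole range. Their median was 10.2, 18.4 and 20.3% in KI, against 9.49, 15.9 and 19.03% in Control, well under the 48.3 to 53.8% over all 7560 bodies. Of the 21 bodies, 9 averaged under 10%, among them those of Lmo2, Fli1, Lyl1, Bmi1 and Cxcr4, and 2 averaged over 90%, those of Etv6 and Fgd5.

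**Figure D1:**
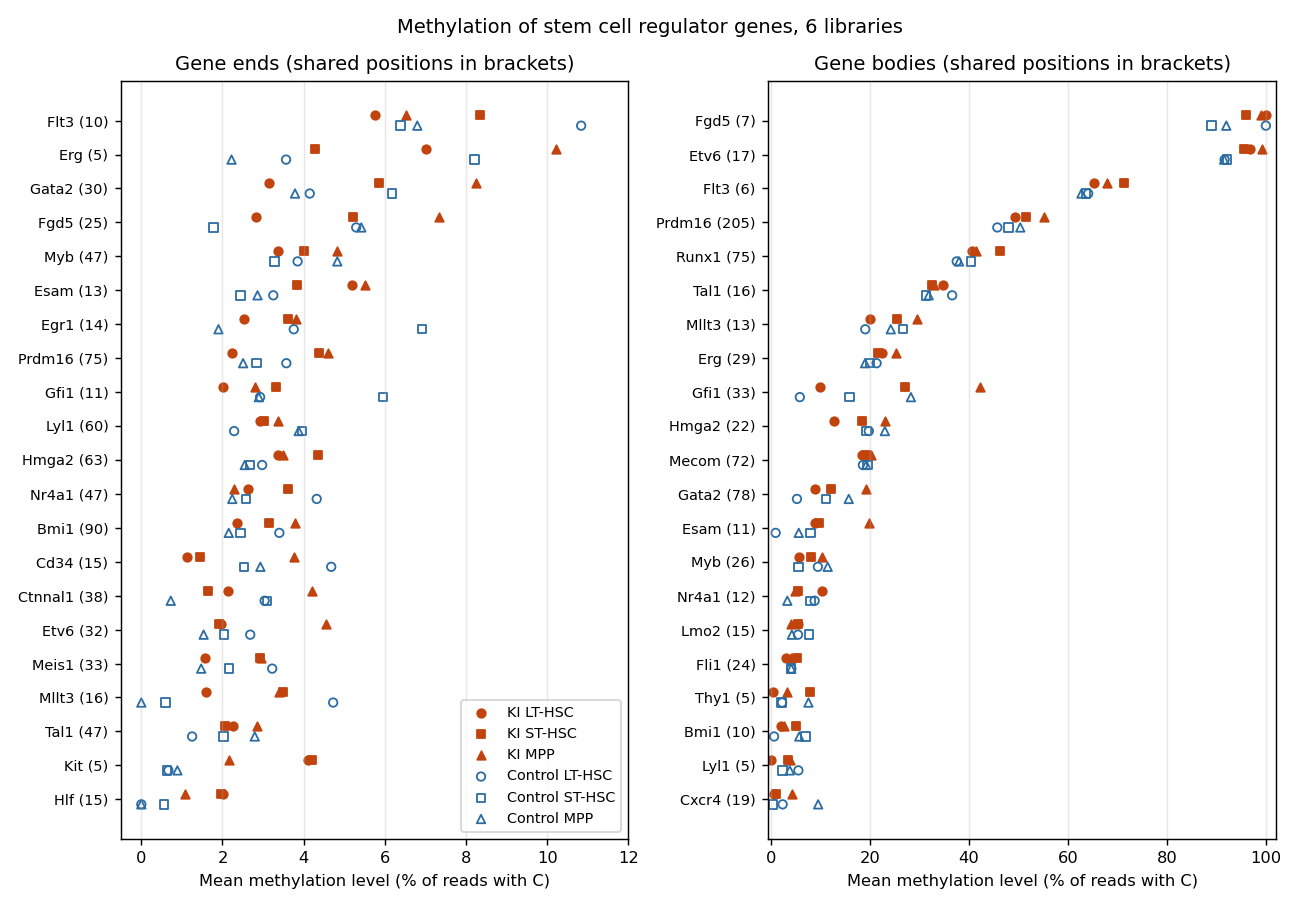
Mean methylation level (percent of reads with C, x axis) of each gene's ends (left panel, axis to 12%) and body (right panel), with filled markers for the 3 KI libraries drawn above open markers for the 3 Control libraries. The 21 ends lie between 0 and 10.8%, while bodies run from 0 to 100% and the body of Gfi1 spreads from 5.84 to 42.2%.

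A region was called between a pair of libraries at an adjusted p under 0.01 in a two-sided Fisher exact test on summed reads, with Benjamini-Hochberg adjustment over all 20717 regions, if the means over positions were also 10 or more points apart. Such a call compares those libraries and covers counting error only. Reads are summed over positions, so a read that spans several CpGs is counted at each of them. The test takes these counts as independent, which makes its p too small. Between KI and Control, 0 of the 42 regions were called in LT-HSC, 1 in ST-HSC (the body of Gfi1) and 1 in MPP (the body of Esam), both higher in KI. Of all regions, 2.66% were called in LT-HSC (1.87% higher, 0.792% lower), 3.18% in ST-HSC (2.92% higher, 0.265% lower) and 3.98% in MPP (3.21% higher, 0.772% lower). The members' counts were thus near or under the background. Between MPP and LT-HSC, 4 were called in KI (the bodies of Gfi1, Gata2, Esam and Hmga2) and 2 in Control (the bodies of Gfi1 and Gata2), all higher in MPP, against 2.7% of all regions in KI (2.27% higher, 0.425% lower) and 4.46% in Control (2.71% higher, 1.76% lower).

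Across cell types, a limma fit of log2 methylated over unmethylated reads, with cell type as a block, called 0 members between KI and Control at an adjusted p under 0.05, against 0.00483% of all regions. At an unadjusted p under 0.05, 4 of the 42 member regions passed, the bodies of Esam and Gfi1 and the ends of Kit and Hlf. Of all 20717 regions, 1384 passed. Between MPP and LT-HSC, limma called 0 members and 0% of all regions. At an unadjusted p under 0.05, 9 of the 42 member regions passed, against 1785 of all 20717 regions. The 9 were the bodies of Gfi1, Gata2, Mllt3, Esam, Hmga2, Erg and Thy1, with higher MPP values, and those of Fgd5 and Nr4a1, with lower ones.

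The largest difference among member regions with at least 5 positions lay in the body of Gfi1, a zinc-finger repressor that holds stem cells in quiescence and later directs granulocyte formation. Over 33 positions its level was 10.0, 27.1 and 42.2% in KI LT-HSC, ST-HSC and MPP, against 5.84, 15.9 and 28.3% in Control. In both genotypes the level climbed from LT-HSC over ST-HSC to MPP, and at each step KI lay above Control. MPP minus LT-HSC was 32.2 points in KI (Fisher adjusted p 3.91e-97) and 22.4 points in Control (1.53e-105). With limma over both genotypes the log2 ratio was higher by 3.07 in MPP (SE 0.37, adjusted p 0.239). The KI excess was 4.16 points in LT-HSC (Fisher adjusted p 9.54e-05, under the threshold of 10 points), 11.2 in ST-HSC (Fisher adjusted p 4.07e-09) and 13.9 in MPP (0.0272), a mean of 9.74 ± 5.02 points (SD over 3 cell types, which are not replicates). With limma this difference was 0.74 on the log2 scale (SE 0.30, adjusted p 0.740). Weighted by reads, KI stood at 40.8% and Control at 36.3% in MPP, so the difference there was 4.47 points in place of 13.9.

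All positions of Gfi1 that were called one by one lay in 1 cluster of 19 positions within 95 bases (chr5:107721537-107721631), about 2.76 kb inside the nearest listed start. Clusters are runs of shared positions with no gap over 200 bases. No exon or intron was assigned here. This cluster was at 14.6, 43.6 and 69.0% in KI LT-HSC, ST-HSC and MPP, against 8.69, 24.9 and 47.4% in Control. All 19 positions were higher in MPP than in LT-HSC in KI, and all 19 in Control. Tested one by one, 14 were called higher in each genotype, 11 of them in both. KI lay above Control at 18 of the 19 positions in ST-HSC and at 18 in MPP, with means of 18.7 and 21.6 points in these cell types. Of these, 2 positions in MPP passed the single-position threshold of 25 points and an adjusted p under 0.01. The pooled read share in MPP was 69.7% in KI (Wilson 95% interval 66.4 to 72.9%, 763 reads summed over the 19 positions) and 46.9% in Control (44.0 to 49.8%, 1156 reads). Intervals here and below cover counting error only and are too narrow. A read that spans several CpGs counts at each of them, and amplified copies of 1 molecule count as separate reads.

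Both strands of the cluster gave the same order of cell types. On the forward strand (9 positions) the level was 12.9, 45.2 and 74.96% in KI, against 4.68, 27.4 and 45.0% in Control. On the reverse strand (10 positions) it was 16.1, 42.1 and 63.6% in KI, against 12.3, 22.6 and 49.5% in Control. The neighbouring 14 positions, 737 bases from a listed start, stayed at 3.79, 4.67 and 5.83% in KI, against 1.97, 3.70 and 2.40% in Control. The ends of Gfi1 (11 positions) were at 2.01, 3.31 and 2.79% in KI, against 2.93, 5.96 and 2.90% in Control, lower in KI in all 3 cell types by 0.104 to 2.65 points.

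**Figure D2:**
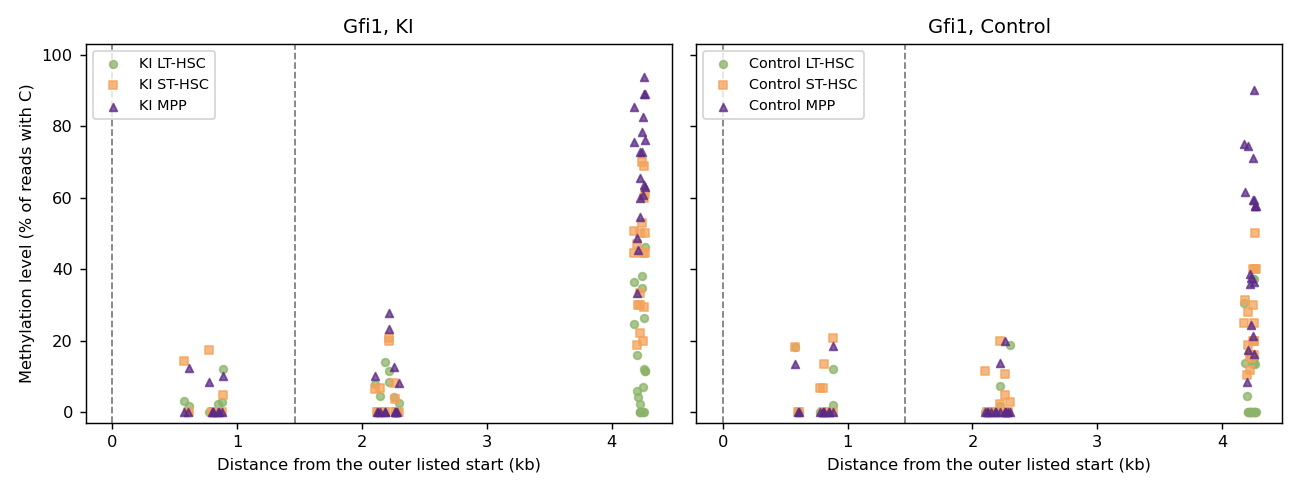
Methylation level (percent, y axis) of each shared position of Gfi1 by distance in kb into the gene from its outer listed start, with KI on the left and Control on the right and cell types by colour and shape. Dashed lines mark the listed starts. The cluster at about 4.2 kb averages 14.6, 43.6 and 69.0% in KI and 8.69, 24.9 and 47.4% in Control, and the clusters nearer to the starts stay under 6% on average.

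Gata2, a transcription factor that stem cells need to survive and that is switched down as they mature, had 78 body positions. Its body was at 8.91, 12.1 and 19.3% in KI LT-HSC, ST-HSC and MPP, against 5.26, 11.1 and 15.7% in Control. MPP minus LT-HSC was 10.4 points in KI (Fisher adjusted p 5.41e-44) and 10.5 points in Control (1.21e-63), and with limma the log2 ratio was higher by 1.56 (SE 0.37, adjusted p 0.378). The genotypes differed by 3.65, 0.947 and 3.58 points (LT-HSC, ST-HSC and MPP, KI higher), none called, and weighted by reads KI minus Control averaged -0.126 points.

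The stage difference in Gata2 did not run evenly along the gene. The largest levels were farthest in, about 6.03 kb past the inner start (chr6:88204649-88204732, 5 positions), at 66.5, 70.8 and 92.4% in KI, against 44.0, 66.7 and 83.6% in Control. About 1.98 kb past the inner start (chr6:88200599-88200682, 7 positions), the level was 16.8, 16.1 and 46.1% in KI, against 7.68, 7.92 and 38.6% in Control, so the mean of MPP stood above both other cell types in each genotype. All 7 positions were higher in MPP than in LT-HSC in KI, but only 4 were in Control. There the Control MPP positions ran from 0 to 100% with a median of 18.8%. In another cluster, 2.26 kb before the inner start (8 positions), the level was 3.802, 10.1 and 15.7% in KI, against 1.57, 9.04 and 15.1% in Control. In that cluster all 8 positions were higher in MPP than in LT-HSC in KI, but only 4 were in Control, with a Control MPP median of 4.52%. The 24 positions around the inner start stayed at 3.005, 2.64 and 2.69% in KI, against 1.08, 3.36 and 5.09% in Control. Of the 108 Gata2 positions, 49 lie inside Gm38708, a lncRNA gene, and positions are not tied to a transcript.

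Strands disagreed in Gata2, most of all in the Control MPP library. In the cluster before the inner start, the forward strand was at 14.2% in KI MPP and 29.1% in Control MPP, and the reverse strand at 17.3% in KI MPP and 1.04% in Control MPP. In the cluster 1.98 kb past that start, the forward strand was at 32.8% in KI MPP and 56.7% in Control MPP, and the reverse strand at 56.0% in KI MPP and 25% in Control MPP. Over the 27 member CpGs with both strands measured and a mean level of 10 to 90%, the strands differed on average by 12.6, 10.6 and 11.2 points in KI LT-HSC, ST-HSC and MPP, against 19.1, 11.4 and 21.8 points in Control. The Control LT-HSC and Control MPP libraries thus had the least agreement within a CpG. Over the 11113 such CpGs of the whole data set the values were 14.1, 13.7 and 13.1 points in KI, against 17.5, 14.4 and 21.03 in Control.

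**Figure D3:**
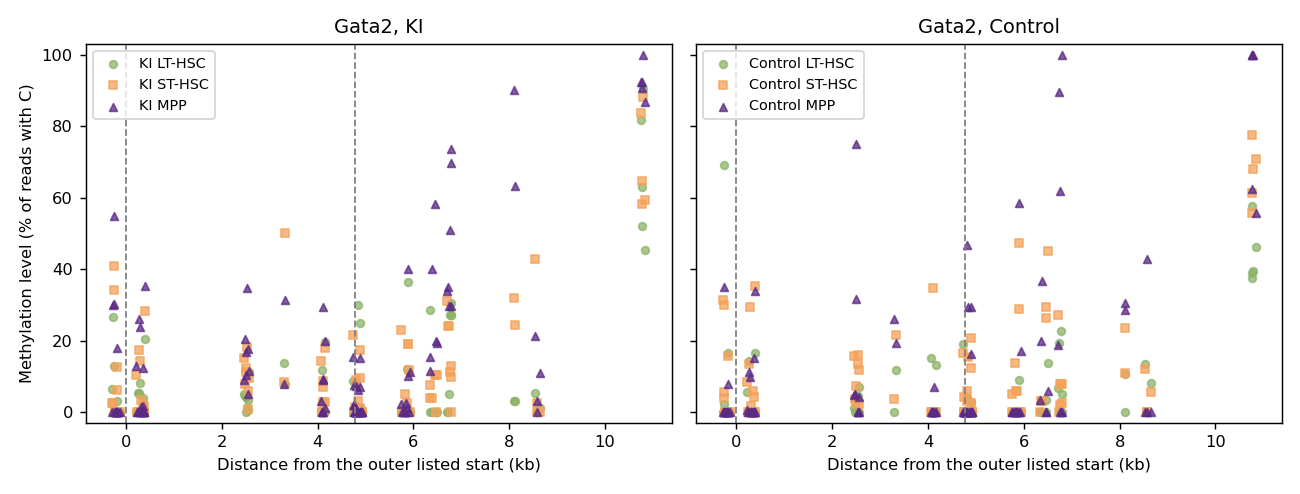
Methylation level (percent, y axis) of each shared position of Gata2 by distance in kb into the gene from its outer listed start, KI on the left and Control on the right, with dashed lines at both listed starts. Positions at the starts lie mostly near 0%, and the last cluster, near 10.8 kb, averages 66.5, 70.8 and 92.4% in KI and 44.0, 66.7 and 83.6% in Control.

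Esam, an adhesion molecule of endothelium that is also displayed on stem cells and used to sort them, had the largest genotype difference in MPP among member regions with at least 5 positions. Its body (11 positions) was at 8.97, 9.63 and 19.7% in KI LT-HSC, ST-HSC and MPP, against 0.957, 7.99 and 5.63% in Control, so the KI libraries lay above the Control libraries without overlap. KI minus Control was 8.01, 1.64 and 14.1 points, the last called (Fisher adjusted p 1.08e-15), and MPP minus LT-HSC was 10.8 points in KI (5.22e-07) and 4.67 in Control. On the forward strand alone (6 positions), the stage difference was 1.87 points in KI and 4.91 in Control and the excess of KI in MPP was 5.20 points, and on the reverse strand (5 positions) these were 21.4, 4.38 and 24.8 points. Over the cell types limma gave 2.28 on the log2 scale (SE 0.66, adjusted p 0.610). The difference lay in 7 positions within 94 bases (chr9:37531527-37531620), at 12.2, 13.5 and 28.1% in KI, against 1.50, 9.70 and 3.13% in Control. Pooled over its reads, that cluster was at 27.8% in KI MPP (Wilson 95% interval 23.7 to 32.3%) and 3.76% in Control MPP (2.25 to 6.22%), and at 15.5% in KI ST-HSC (10.3 to 22.7%) and 9.74% in Control ST-HSC (6.33 to 14.7%). The ST-HSC intervals overlap, and without the ST-HSC libraries limma called the body of Esam (3.32 on the log2 scale, SE 0.59, adjusted p 5.74e-05), with 1 residual degree of freedom and 144 regions called in all.

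Hmga2, a chromatin protein active in fetal stem cells, was called between MPP and LT-HSC in KI. Its body (22 positions) was at 12.8, 18.4 and 23.1% in KI LT-HSC, ST-HSC and MPP, against 19.8, 19.3 and 23.0% in Control. MPP minus LT-HSC was 10.4 points in KI (Fisher adjusted p 6.76e-22) and 3.25 points in Control. The difference between these stage differences was not tested, and it depended on the positions used. At a coverage of at least 20 (8 positions), MPP was higher by 16.9 points in KI and 14.8 in Control, and on the forward strand by 11.7 in KI and 13.2 in Control. Weighted by reads, the body in MPP was at 34.2% in KI and 26.6% in Control. KI minus Control came to -7.03 points for LT-HSC, -0.879 for ST-HSC and 0.0891 for MPP.

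Prdm16, a histone methyltransferase-like regulator that stem cells need, held the most positions, 205 in the body and 75 at the ends. Its body was at 49.4, 51.6 and 55.1% in KI LT-HSC, ST-HSC and MPP, against 45.7, 48.0 and 50.4% in Control. KI was higher in each cell type, by 3.97 ± 0.69 points (SD over 3 cell types), none called, and in both genotypes the mean over positions climbed with stage. Weighted by reads, the body stood at 35.8, 45.3 and 46.8% in KI, against 44.3, 41.1 and 46.3% in Control. On that weighting LT-HSC stood at -8.52 points KI minus Control (Fisher adjusted p 2.10e-43), and Control did not climb. Of the 21 bodies, 3 climbed from LT-HSC over ST-HSC to MPP in both genotypes, those of Prdm16, Gfi1 and Gata2, against 7.47% of all bodies, and 0 of 21 ends did, against 6.76%. Weighted by reads, 2 bodies did, those of Gata2 and Gfi1.

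Inside Prdm16, most stretches were either near 0% or over 90%, and a few short clusters carried the differences. About 95.8 kb inside the start (chr4:154540959-154541153, 8 positions, all on the reverse strand), the level was 72.0, 79.7 and 94.3% in KI, against 40.9, 42.2 and 56.4% in Control. In that cluster every KI library lay above every Control library, by 31.1, 37.5 and 38.0 points in LT-HSC, ST-HSC and MPP. Pooled reads gave 70.5% in KI LT-HSC (Wilson 95% interval 62.2 to 77.7%, 129 reads) and 45.0% in Control LT-HSC (39.9 to 50.3%, 353 reads). A second cluster 3 kb closer to the start (chr4:154544125-154544171, 6 positions, also all on the reverse strand) followed the stage, at 8.59, 35.8 and 64.0% in KI, against 10.3, 16.2 and 51.9% in Control. A further cluster, 2.14 kb inside the start (14 positions), was at 2.15, 9.83 and 19.03% in KI, against 1.96, 5.90 and 5.81% in Control. There the reverse strand was at 21.5% in KI MPP and 0% in Control MPP, while the forward strand was at 14.5% in KI MPP and 16.3% in Control MPP.

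Over the whole list there were 175 clusters, 73 with at least 5 positions, of which 56 averaged under 10% and 7 over 90%. KI was at least 10 points higher in all 3 cell types in 1 of the 73, the Prdm16 cluster at 95.8 kb, and lower in 0. Over all 24919 such clusters of the data set the shares were 0.903% and 0.0482%. By any margin, KI was higher in all 3 cell types in 26 of the 73 (21.9% of all clusters) and lower in 3 (6.24%). MPP was at least 10 points above LT-HSC in both genotypes in 6 of the 73, against 1.49% of all clusters: the far clusters of Gfi1 and Gata2, the cluster 1.98 kb past and that 2.26 kb before the inner Gata2 start, and those at 95.8 and 92.7 kb in Prdm16. In 1 it was at least 10 points below, 9.81 kb inside Prdm16 (5 positions), at 91.9, 78.2 and 81.4% in KI, against 74.1, 73.3 and 55% in Control, and 0.349% of all clusters did so. Its forward strand was at 81.7% in KI MPP and 91.7% in Control MPP, and its reverse strand (2 positions) at 81.1% in KI MPP and 0% in Control MPP. The clusters named here were chosen after their values were seen.

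Runx1, the master regulator of the first blood stem cells, had 75 body positions and none at its ends. Its body was at 40.6, 46.3 and 41.4% in KI LT-HSC, ST-HSC and MPP, against 37.5, 40.4 and 38.0% in Control, with all KI libraries above all Control libraries and a mean difference of 4.09 ± 1.56 points (SD over 3 cell types). The body as a region was not called. The inner start shown above lies in this body. Within 1 kb of the listed starts (29 positions) the level was 8.21, 19.1 and 12.04% in KI, against 4.11, 9.58 and 8.03% in Control. In both genotypes ST-HSC was the highest cell type there.

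Kit, the receptor for stem cell factor and a marker of the sort itself, had 5 positions at its ends. They were at 4.11, 4.21 and 2.15% in KI LT-HSC, ST-HSC and MPP, against 0.667, 0.639 and 0.889% in Control. KI lay above Control without overlap, but the values are small: in LT-HSC 14 of 310 reads summed over positions in KI and 3 of 327 in Control were methylated. The pooled share there was 4.52% in KI (Wilson 95% interval 2.71 to 7.44%) and 0.917% in Control (0.312 to 2.66%). Across cell types limma gave 1.56 on the log2 scale (SE 0.54, adjusted p 0.704). The body of Kit held 4 shared positions, too few to be compared. It was at 9.55, 10.8 and 17.5% in KI LT-HSC, ST-HSC and MPP, against 7.68, 8.49 and 2.17% in Control. The KI excess in MPP was 15.3 points there, and 1 of the 4 positions was called higher in KI. Slamf1, the gene of CD150, and Ly6a, the gene of Sca-1, are further markers of the sort. Slamf1 held no position shared by all 6 libraries. At 4 positions covered in both genotypes of a cell type it was at 69.1% in KI ST-HSC and 76.0% in Control ST-HSC, and at 73% in KI MPP and 75% in Control MPP. Ly6a had no position in any library.

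Hlf, a transcription factor largely confined to stem cells within the blood system, was the least methylated member at its ends. Over 15 positions it was at 2.01, 1.97 and 1.08% in KI, against 0, 0.556 and 0% in Control. Control LT-HSC had 0 of 516 reads summed over positions, which allows up to 0.581%, and Control MPP 0 of 651, which allows up to 0.461%. These limits take the summed reads as independent and are thus too low. KI was above Control without overlap at 4 of 21 ends, those of Esam, Hlf, Hmga2 and Kit, against 11.4% of all ends, and at 5 of 21 bodies, those of Erg, Esam, Etv6, Flt3 and Runx1, against 14.7% of all bodies. It was below at 0 ends (1.48%) and 0 bodies (1.88%). Weighted by reads, it was above without overlap at 2 bodies, those of Esam and Etv6, and at 4 ends, those of Esam, Hlf, Kit and Nr4a1, and the body of Erg was lower in KI in all 3 cell types. KI was higher in all 3 cell types at 5 ends (23.3%) and 8 bodies (28.1%), and lower in all 3 at 1 end (5.02%), that of Gfi1, and 0 bodies (5.86%).

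Etv6, an ETS repressor that stem cells need in adult marrow, was almost fully methylated in its body (17 positions), at 96.8, 95.5 and 99.2% in KI, against 91.7, 92.2 and 91.6% in Control. A single forward-strand position, 134251538 on chromosome 6, made most of that gap. It was at 66.7, 89.5 and 100% in KI, against 0, 14.3 and 0% in Control, on 33, 19 and 11 reads in KI, against 31, 28 and 13 in Control. At this position and at 154541146 of Prdm16 on chromosome 4, the lowest KI library was at least 25 points above the highest Control library. The share of all positions with such a gap was not counted, so there is no background for it. Both positions were named after their values were seen.

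**Figure D4:**
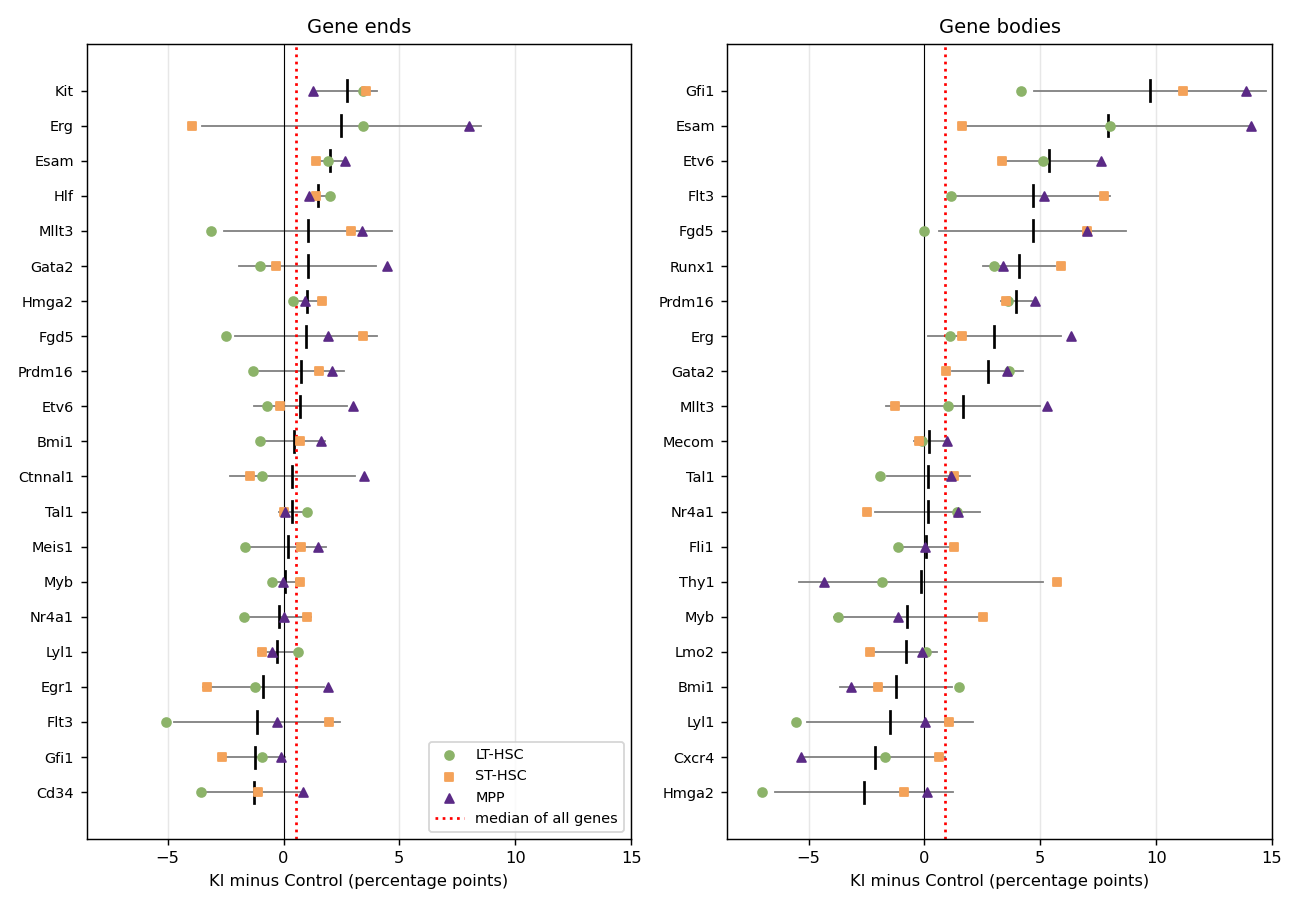
KI minus Control difference in percentage points (x axis) for each gene's ends (left) and body (right), with a marker per cell type, a black tick at the mean of the 3 cell types and a grey bar of 1 SD over them. The red dotted line is the median over all genes. Most ends lie within a few points of 0, and the bodies of Gfi1 and Esam reach 13.9 and 14.1 points in MPP.

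As a list, the members had small median differences, given here beside those of all regions. The median KI minus Control over the 21 ends was -0.921, 0.725 and 1.48 points in LT-HSC, ST-HSC and MPP, against -0.144, 0.614 and 1.24 points over all ends. Over the 21 bodies it was 1.01, 1.27 and 1.47 points, against 0.280, 1.15 and 1.22 points over all bodies. For MPP minus LT-HSC, the ends had a median of 1.39 points in KI and -1.07 in Control, against 1.19 and -0.228 over all ends. The bodies had medians of 2.82 points in KI and 0.687 in Control, against 0.989 and 0.00785 over all bodies. These comparisons share libraries, so their values are given side by side with no correlation.

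The network factors other than Gata2 had no region called, though single positions in each were called in some comparisons. The body of Erg (29 positions) was at 22.5, 21.6 and 25.4% in KI, against 21.4, 19.97 and 19.03% in Control. Weighted by reads, it would be called higher in MPP than in LT-HSC, by 17.6 points in KI and 15.7 in Control. The read-weighted levels were 23.1, 40.3 and 40.7% in KI, against 25.5, 49.9 and 41.2% in Control, so the direction between genotypes was opposite to that of the means over positions. The bodies of Fli1 and Lmo2 stayed between 3.002 and 7.72% in all libraries, and the ends of Lyl1 and Tal1 between 1.25 and 3.96%. The body of Tal1 (16 positions) was at 34.7, 32.6 and 33.0% in KI, against 36.6, 31.3 and 31.9% in Control. Weighted by reads, the body of Tal1 would be called in all 3 cell types, at -22.2 points for LT-HSC, -16.9 for ST-HSC and 11.2 for MPP (KI minus Control), so its value depended on whether positions or reads were weighted equally.

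Mecom and Meis1, which promote self-renewal and are known from leukaemia, had no region called, though single positions in each were called in some comparisons. The body of Mecom (72 positions) was at 18.5, 19.3 and 20.3% in KI, against 18.6, 19.5 and 19.3% in Control, all 6 within 2 points. The ends of Meis1 (33 positions) were at 1.56, 2.93 and 2.96% in KI, against 3.22, 2.17 and 1.48% in Control. Mllt3, a reader of acylated histones that maintains human stem cells, had a body (13 positions) at 20.1, 25.5 and 29.5% in KI, against 19.1, 26.7 and 24.2% in Control. MPP was above LT-HSC by 9.43 points in KI and 5.15 in Control, under the threshold of 10 points. Weighted by reads, these differences were 14.1 points in KI and 18.7 in Control, and the body of Mllt3 would be called lower in KI than in Control in MPP, at -12.8 points.

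Among the other regulators, the ends of the Polycomb gene Bmi1 (90 positions) were at 2.36, 3.16 and 3.78% in KI, against 3.40, 2.45 and 2.15% in Control, and 47 of its 100 positions lie within 1 kb of the neighbouring gene Commd3, none inside it. The body of Myb, a factor of progenitor growth (26 positions), was at 5.78, 8.11 and 10.3% in KI, against 9.49, 5.58 and 11.5% in Control. The ends of the immediate early genes Nr4a1 and Egr1 stayed between 1.90 and 6.91%. Of the 65 positions of Lyl1, 37 lie inside Nfix as well, so these values are not particular to Lyl1. Other members overlap too: 15 of the 16 Lmo2 positions lie inside Gm38515, and 10 of the 16 Flt3 positions inside Gm26597. Of the 49 Etv6 positions, 27 lie inside Gm46977. Among the 280 Prdm16 positions, 78 lie inside 5930403L14Rik and 43 inside Prdm16os.

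The surface genes differed by gene and by the part measured. Levels were low at the ends of Cd34 and in the bodies of Cxcr4 and Thy1. They were high in the body of Flt3 and at the few positions of Slamf1, Procr and Tek. The ends of Cd34 (15 positions) were at 1.14, 1.44 and 3.77% in KI, against 4.68, 2.53 and 2.93% in Control. The body of the chemokine receptor gene Cxcr4 (19 positions) was at 0.662, 1.12 and 4.21% in KI, against 2.37, 0.476 and 9.54% in Control, with MPP above LT-HSC in both. The body of Thy1 (5 positions) ran from 0.417 to 7.91%. Flt3, the receptor that marks the exit from the stem cell state, was at 65.3, 71.4 and 67.9% in KI, against 64.1, 63.6 and 62.7% in Control, in its body of 6 positions. Its ends (10 positions) were at 5.77, 8.35 and 6.52% in KI, against 10.8, 6.39 and 6.80% in Control.

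Further genes had little or no shared coverage. The body of Fgd5 (7 positions) was at 100, 96.0 and 99.0% in KI, against 100, 89.0 and 92% in Control, and the ends of Ctnnal1 (38 positions), the gene of alpha-catulin, at 2.13, 1.64 and 4.20% in KI, against 3.04, 3.09 and 0.725% in Control. Procr, the endothelial protein C receptor used to sort stem cells, had 2 shared positions. At 9 positions covered in both genotypes it was at 95.1% in KI ST-HSC and 92.3% in Control ST-HSC, and at 98.3% in KI MPP and 97.6% in Control MPP. In LT-HSC, 3 such positions, with coverage down to 10 reads, were at 73.3% in KI and 66.7% in Control. Tek, the angiopoietin receptor, had 0 shared positions and was at 100% in both genotypes at 2 positions in ST-HSC and 4 in MPP.

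Position by position, 30 of the 1412 member positions passed between KI and Control in LT-HSC (14 higher, 16 lower), 15 in ST-HSC (12 higher, 3 lower) and 65 in MPP (41 higher, 24 lower). These calls needed an adjusted p under 0.01 over all shared positions and at least 25 points, and they were made for 2.62, 0.672 and 3.74% of all positions in the same order. Of the 65 in MPP, 22 were in the body of Prdm16 (19 higher, 3 lower) and 13 in the body of Gata2 (7 higher, 6 lower). Between MPP and LT-HSC, 47 were called in KI (45 higher, 2 lower), against 1.5% of all positions, and 104 in Control (77 higher, 27 lower), against 5.25%. In KI the bodies of Gfi1, Prdm16 and Gata2 held 14, 12 and 11 of the higher calls, and in Control 14, 16 and 13.

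Within promoter stretches, rich or poor in CpG, the level differed between CpGs inside and outside the enzyme site. The CpG content of the stretches was not held equal between these groups. The enzyme site of reduced representation libraries is CCGG, searched here on both strands, and 52.8% of all 32851 RefSeq promoter stretches hold it. In member promoters, CpGs inside CCGG (35 positions) were at 10.6, 12.8 and 12.1% in KI LT-HSC, ST-HSC and MPP, against 10.7, 8.05 and 12.1% in Control. Other CpGs (112 positions) were at 1.04, 0.919 and 2.18% in KI, against 0.748, 1.91 and 0.732% in Control. Over all promoters the levels were 12.7 to 16.2% inside CCGG (17561 positions) and 1.77 to 2.47% elsewhere (75546 positions). In member ends, the first position of a run read from 1 strand (113 positions) was at 10.8, 12.8 and 14.5% in KI, against 13.999, 11.2 and 10.6% in Control, and the other 586 positions were at 1.12, 1.86 and 2.20% in KI, against 1.46, 1.46 and 1.35% in Control. The cause of this difference was not tested.

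**Figure D5:**
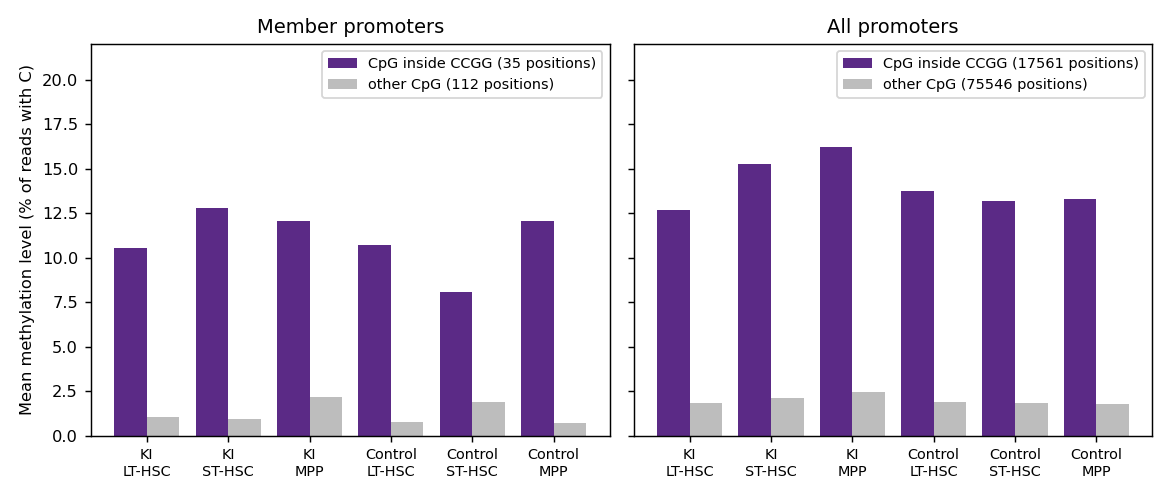
Mean methylation level (percent, y axis from 0) of CpGs inside CCGG and of other CpGs, for member promoters (left) and all RefSeq promoters (right), in the 3 KI and then the 3 Control libraries. CpGs inside CCGG stand at 8.05 to 12.8% in member promoters and other CpGs at 0.732 to 2.18%.

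A context list of 40 further stem cell and progenitor genes had 49 regions in 33 genes. Between KI and Control, calls numbered 2 for LT-HSC, 2 for ST-HSC and 5 for MPP, all higher in KI, and between MPP and LT-HSC 3 in KI and 1 in Control, all higher in MPP. Of all regions, the same rule called 2.66, 3.18 and 3.98% between KI and Control (1.87, 2.92 and 3.21% higher). Between MPP and LT-HSC it called 2.7% in KI and 4.46% in Control (2.27 and 2.71% higher). The body of Gfi1b, the paralog of Gfi1 that directs erythroid and megakaryocyte formation (10 positions), was at 62.4, 67.3 and 81.3% in KI, against 55.8, 44.3 and 77.9% in Control. Like Gfi1, it was higher in KI in each cell type and higher in MPP than in LT-HSC in both genotypes. The body of Cdkn1c, a cell cycle inhibitor of quiescent stem cells (22 positions), was at 54.7, 29.9 and 41.2% in KI, against 26.2, 39.8 and 30.99% in Control. The body of Hoxb4 (12 positions) was at 1.08, 17.0 and 15.4% in KI, against 1.72, 5.18 and 0% in Control, and the ends of Cd27 (7 positions) at 25.1, 24.5 and 17.9% in KI, against 15.3, 18.99 and 8.05% in Control.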

How the data were processed

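Per the labels' protocols, each library was made from 10 ng of sorted DNA, with fragments of 150 to 400 bp cut from a gel, and 5 libraries shared a HiSeq2000 lane with 30% PhiX. Per the submitters' processing notes, Bismark 0.10.0, SAMtools 1.0, methylKit 0.9.1 and mm10 were used. Not given in the sources used here were the programs' settings, the conversion rate and whether duplicates were removed. Coverage, as deposited, is the read count at each position, at least 10 in every library, and the deposited percent of C and of T is the share of those reads, per the file headers. Coverage times percent gave whole methylated reads at 100% of positions, within 0.01% of the coverage.

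Levels are unweighted means over positions covered in all 6 libraries, per gene region with at least 5 of them, over 34614 protein-coding and lncRNA genes of a RefSeq table (GRCm38.p6). Of the 53473 forward and 54300 reverse positions within RefSeq promoters, all fell on a CG. Fisher tests and limma 3.58.1 (R 4.3.3, prior count of 1, trended variance) ran on summed reads over all 20717 regions, and Fisher tests also on single positions. Tests were checked on simulated data. A limma p covers only the spread between these libraries, which may be technical, and it is unstated whether the sorted populations of 1 genotype shared a pool of mice. Members were named in full where a region was called or at least 10 points apart, together with the sort markers, and up to 4 context genes by the largest mean difference. The gene list, the context list and the tests were chosen with earlier results of these data known.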

Additional observations from a re-analysis of the deposited data

Results flagged for a closer look

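The median KI minus Control difference over the 21 member ends was -0.921 points for LT-HSC, 0.725 for ST-HSC and 1.48 for MPP, so its sign in LT-HSC was opposite to that in the other cell types. This difference between cell types was not tested. Over all gene ends the median was also below 0 in LT-HSC (-0.144) and above 0 in ST-HSC (0.614) and MPP (1.24).

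The median MPP minus LT-HSC difference over the same ends was 1.39 points in KI and -1.07 in Control. This difference between genotypes was not tested, and over all ends the medians were 1.19 in KI and -0.228 in Control.

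The body of Hmga2 stood at -7.03 points KI minus Control for LT-HSC, -0.879 for ST-HSC and 0.0891 for MPP, opposite in sign in MPP. That difference was not tested.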

How the results depend on the processing

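No paired analysis was possible because replicate numbers pair no samples here: each group held 1 library, numbered 1 in accession order. Cell type paired them in the limma fit of genotype, which called 0 members with and without the cell type block. The count of members called between KI and Control in LT-HSC was 0, and became 2 with read-weighted means (the bodies of Tal1 and Esam) and 3 at a threshold of 5 points. In ST-HSC it was 1 (Gfi1), and became 0 at a coverage of at least 20, on forward-strand positions alone, with ends of 500 bases, after thinning to 10 reads and at 20 points, and 2 with read-weighted means, with ends of 2000 bases and at 5 points. In MPP it was 1 (Esam), and became 0 at a coverage of at least 20, after thinning and at 20 points, 3 with read-weighted means, 2 on either strand alone and 4 at 5 points. At a coverage of at least 20 the body of Esam had too few positions left to be tested. For MPP against LT-HSC, KI had 4 calls, which became 2 at a coverage of at least 20, 7 with read-weighted means (without Gata2, at 8.90 points) and at 5 points, 1 after thinning and at 20 points, and 2 without positions that open a run, an alternative chosen after seeing the data. Control had 2, which became 4 with read-weighted means, 7 at 5 points and 1 at 20 points. The body of Gfi1 was called higher in MPP in both genotypes under every one of these alternatives that changed positions or weights, and its mean difference ranged from 15.3 to 31.4 points. The lowest value came at a coverage of at least 20, which kept 12 of its 33 positions; at that coverage the body of Gata2 was called in neither genotype. With limma, 1 member was called between KI and Control without the ST-HSC libraries (Esam, against 0), and 1 between MPP and LT-HSC with at least 10 positions per region (Gfi1, adjusted p 0.0458, against 0). Single position calls fell at a coverage of at least 20 to 18, 8 and 38 in LT-HSC, ST-HSC and MPP for KI against Control, and to 20 in KI and 55 in Control for MPP against LT-HSC. At 40 points they were 17, 8 and 33, and 30 and 55. After thinning they were 0, 0 and 0, and 0 and 7, since 10 reads rarely reach the threshold. The median KI minus Control over member bodies, averaged over cell types, was 0.206 points, and became -0.126 with read-weighted means, 0.935 and 1.77 on forward and reverse positions, 0.487 and 2.73 with ends of 500 and 2000 bases, 1.11 after thinning and 0.556 without positions that open a run. The median MPP minus LT-HSC over ends was 0.0872 points and -0.229 with ends of 500 bases, and over bodies 1.23 and 2.76 with at least 10 positions. With read-weighted means, an alternative chosen here after seeing the data, KI lay above all Control libraries at 2 bodies (against 5), was higher in all 3 cell types at 5 bodies (against 8), and was lower in all 3 at 1 body (against 0) and 2 ends (against 1).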
